A study of Mus musculus with 12 samples.

Results

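The replication module described here holds 43 mouse genes that license replication origins, build and drive the replication fork, and make deoxynucleotides. They were selected by symbol and known function, and all 43 were found among the 53656 gene rows of the count tables and among the 13383 genes that passed the filter on low counts. By role they comprise 10 origin licensing genes, 6 helicase activation genes, 9 genes of DNA polymerases and primase, 6 of the sliding clamp and its loader, 4 of single-strand binding and fork protection, 2 of Okazaki fragment maturation, 2 of histone deposition and 4 of nucleotide synthesis.

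Messenger RNA was measured in sorted mouse thymocytes whose Zfp148 and Zfp281 alleles, which encode zinc finger proteins, are all floxed. There were 12 libraries, 3 in each of 4 groups. The ImCD8 dKO group (immature CD8 single-positive cells, sorted as CD44low, CD8+CD4-, TCRb+ and CD69+) has the Cd4-Cre transgene, and the ImCD8 control group of the same gate lacks it. The ImCD4 dKO group (immature CD4 single-positive cells, sorted as CD44low, CD4+CD8-, H2-Kb- and CD69+) likewise has Cd4-Cre, and the ImCD4 control group lacks it. All 4 groups thus carry Zfp148 fl/fl and Zfp281 fl/fl, and the Cd4 promoter drives Cre in developing T cells, so an effect of Cre cannot be told apart from loss of the genes. For the 6 ImCD8 libraries the genotype label is the opposite of the title, and the groups follow the titles. The labels give no age and do not say whether replicate libraries stem from different mice.

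DNA is replicated only once per cell cycle because origins are licensed before S phase and fired within it. The origin recognition complex, Cdc6 and Cdt1 load the ring of Mcm2 to Mcm7 onto DNA, and Mcm10, Cdc45 and the GINS complex turn that ring into the active helicase. Primase and the polymerases then copy the strands behind it, held by the Pcna clamp, while ribonucleotide reductase, thymidylate synthase and thymidine kinase supply the deoxynucleotides. Many of these genes are known targets of E2F transcription factors, which switch them on before S phase. In the thymus, cell division is mostly known from precursors earlier than the single-positive cells.

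The start regions of 7 genes are printed here because they carry the dKO and replicate results given further on: Cdc6, Mcm2, Mcm3, Mcm5 and Mcm7 differed between dKO and control, and Rrm2 and Tk1 varied most among libraries of a group. Each holds 250 bases before and 50 bases after the annotated start (RefSeq, GRCm38.p6), read 5′ to 3′ on the gene's strand, and capitals mark the letters TTCCCGC or TTGGCGC on either strand, a form of the E2F motif. The windows are chr11:98907901-98908200 on the plus strand for Cdc6, chr1:20820263-20820562 on the minus strand for Mcm3, chr8:75109259-75109558 on the plus strand for Mcm5, chr5:138171834-138172133 on the minus strand for Mcm7, chr6:88898731-88899030 on the minus strand for Mcm2, chr12:24708004-24708303 on the plus strand for Rrm2 and chr11:117825965-117826264 on the minus strand for Tk1.
Cdc6: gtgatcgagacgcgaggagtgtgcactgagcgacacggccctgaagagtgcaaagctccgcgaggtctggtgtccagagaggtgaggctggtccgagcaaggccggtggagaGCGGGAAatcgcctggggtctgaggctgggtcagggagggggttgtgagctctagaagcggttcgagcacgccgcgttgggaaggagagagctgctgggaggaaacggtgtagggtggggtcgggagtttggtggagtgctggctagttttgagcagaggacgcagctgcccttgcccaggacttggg
Mcm3: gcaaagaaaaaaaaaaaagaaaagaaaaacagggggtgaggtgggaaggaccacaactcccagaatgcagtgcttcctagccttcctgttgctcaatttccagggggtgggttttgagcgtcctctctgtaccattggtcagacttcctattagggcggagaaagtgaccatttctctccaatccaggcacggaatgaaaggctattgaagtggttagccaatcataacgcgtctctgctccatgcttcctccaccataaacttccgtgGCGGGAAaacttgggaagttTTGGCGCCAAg
Mcm5: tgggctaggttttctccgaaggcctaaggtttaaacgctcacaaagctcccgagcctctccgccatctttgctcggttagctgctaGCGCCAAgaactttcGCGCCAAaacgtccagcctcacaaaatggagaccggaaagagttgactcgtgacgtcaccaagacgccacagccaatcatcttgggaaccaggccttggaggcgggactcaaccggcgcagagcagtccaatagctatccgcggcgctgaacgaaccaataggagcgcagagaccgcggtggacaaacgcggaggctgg
Mcm7: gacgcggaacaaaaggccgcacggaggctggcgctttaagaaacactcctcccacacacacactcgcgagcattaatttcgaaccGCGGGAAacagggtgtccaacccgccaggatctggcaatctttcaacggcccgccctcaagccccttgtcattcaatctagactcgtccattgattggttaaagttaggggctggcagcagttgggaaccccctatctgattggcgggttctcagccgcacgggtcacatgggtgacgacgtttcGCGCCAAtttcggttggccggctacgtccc
Mcm2: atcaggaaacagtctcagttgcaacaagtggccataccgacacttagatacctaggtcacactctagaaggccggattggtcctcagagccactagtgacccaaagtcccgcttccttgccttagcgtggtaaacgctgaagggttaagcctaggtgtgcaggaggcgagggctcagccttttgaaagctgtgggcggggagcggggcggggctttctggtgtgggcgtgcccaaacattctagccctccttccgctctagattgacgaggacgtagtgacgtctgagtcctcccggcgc
Rrm2: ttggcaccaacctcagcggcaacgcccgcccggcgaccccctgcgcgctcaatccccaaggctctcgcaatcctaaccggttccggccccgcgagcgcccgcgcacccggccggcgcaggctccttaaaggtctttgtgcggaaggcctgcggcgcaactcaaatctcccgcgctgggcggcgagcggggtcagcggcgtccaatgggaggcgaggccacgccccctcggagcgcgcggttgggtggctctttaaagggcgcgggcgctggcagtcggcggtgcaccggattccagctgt
Tk1: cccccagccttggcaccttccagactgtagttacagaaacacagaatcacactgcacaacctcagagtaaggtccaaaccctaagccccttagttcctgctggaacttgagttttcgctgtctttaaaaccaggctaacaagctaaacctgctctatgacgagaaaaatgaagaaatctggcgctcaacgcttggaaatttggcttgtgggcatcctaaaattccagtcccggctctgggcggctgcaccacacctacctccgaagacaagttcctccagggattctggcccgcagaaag

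In the printed windows the E2F letters occurred 3 times for Mcm3, 2 times each for Mcm5 and Mcm7, and 1 time for Cdc6. The last capital run of Mcm3 holds 2 overlapping matches on opposite strands. Mcm2, Rrm2 and Tk1 have none of these letters in this window. Over the module, 40 start regions of 35 genes were matched by symbol, and 22 of them (55%) held the letters, against 6.81% of all 32851 mouse start regions. The CCAAT box, searched on both strands, was in 57.5% of the module's regions and in 37.4% of all regions. A G-rich run, GGGAGGG on either strand, was in 20% of the module's regions and in 22% of all regions. These are matches of letters and not measured binding.

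Gene counts per library ran from 7315833 to 10943143, of which the module took 12753 to 31774 counts, or 0.154% to 0.346%. Zfp148 was at 45.6 to 62.8 CPM (counts scaled to library size and composition) in ImCD8 dKO and 162 to 171 CPM in ImCD8 control libraries, and at 63.0 to 68.9 CPM in ImCD4 dKO and 177 to 182 CPM in ImCD4 control libraries. Zfp281 was at 10.2 to 14.9 CPM in ImCD8 dKO and 112 to 128 CPM in ImCD8 control libraries, and at 16.2 to 21.4 CPM in ImCD4 dKO and 441 to 562 CPM in ImCD4 control libraries. These levels go with the titles, on which each ImCD8 direction below rests. The summed CD8-lineage markers (Cd8a, Cd8b1, Runx3 and Itgae) were at 4514 to 4792 CPM in the ImCD8 and 121 to 294 CPM in the ImCD4 libraries, and the summed CD4-lineage markers (Cd4, Zbtb7b, Gata3 and Cd40lg) at 50.9 to 93.7 and 1957 to 2381 CPM. On the third principal component (5.31% of the variance), replicate 3 of each group lay at -29.2 to -13.9 and the other 8 libraries at 1.27 to 21.8, so results are also given without those 4 libraries where they differ.

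As a sum over its 43 genes, the module reached 2902 to 3167 CPM in ImCD8 dKO and 3278 to 3569 CPM in ImCD8 control libraries. In ImCD4 it reached 1686 to 1774 CPM in dKO and 1493 to 1581 CPM in control libraries. The groups do not overlap in either population: dKO libraries lie below controls in ImCD8 and above controls in ImCD4. In bulk libraries fewer cells in cycle and less RNA per cell cannot be told apart. The heat map of all genes by library shows that the split by population is much larger than that by genotype.

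**Figure D1:**
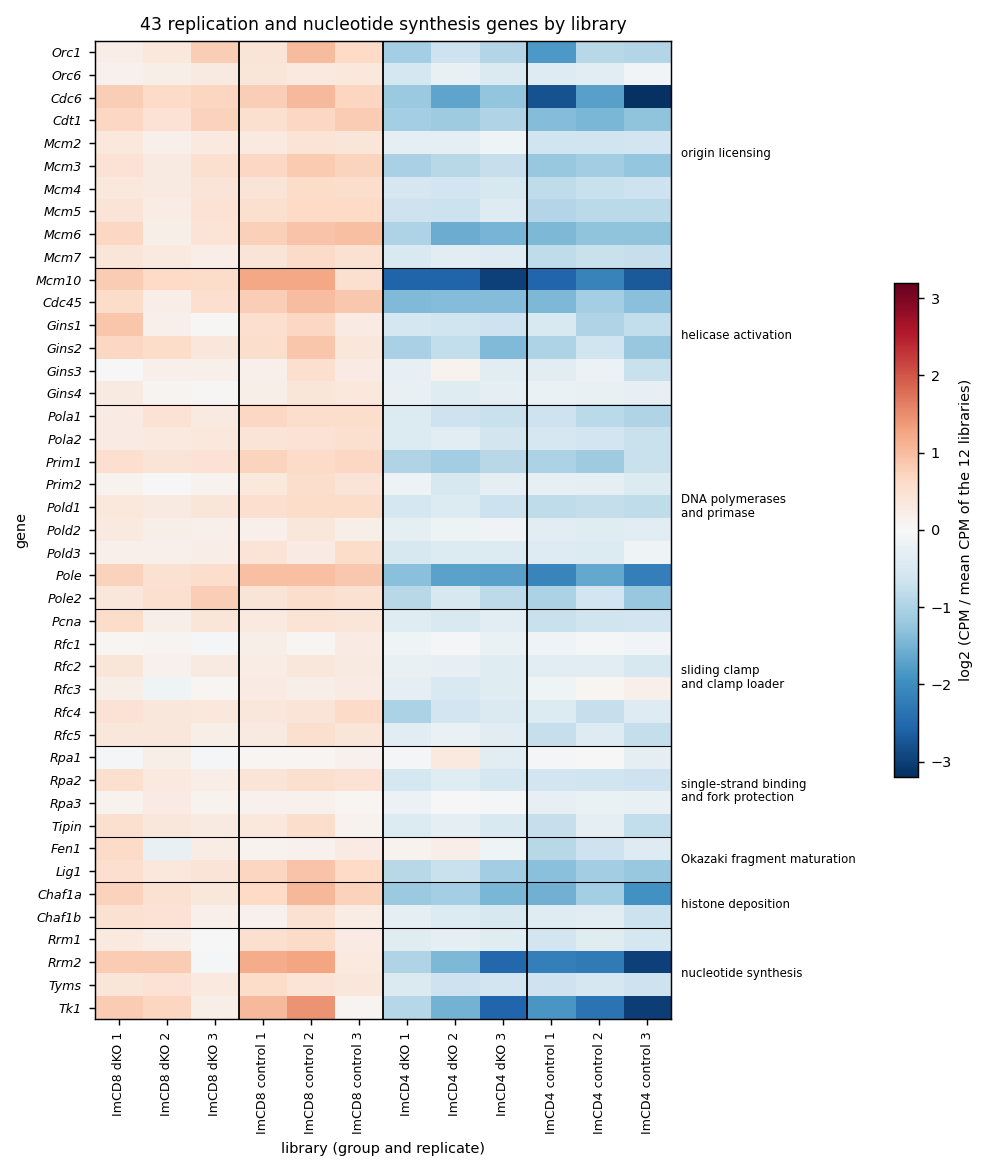
Level of each of the 43 genes (rows, by role) in each of the 12 libraries (columns), as log2 of its CPM over its mean CPM in all 12. The ImCD8 libraries on the left are above the mean for nearly all genes, and Mcm10, Cdc6, Pole, Rrm2 and Tk1 show the deepest contrast with ImCD4.

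Per kilobase of exon, Pcna, the sliding clamp itself, was the most abundant gene of the module in ImCD8, at 74.9 CPM per kb in dKO and 73.9 CPM per kb in control. In ImCD4 dKO it again ranked first, at 42.7 CPM per kb, and in ImCD4 control Rpa3, the smallest subunit of the single-strand binding protein, was at 37.1 and Pcna at 36.3 CPM per kb. Mcm10, a scaffold of the active helicase, was lowest in ImCD4, at 0.137 CPM per kb in dKO and 0.164 CPM per kb in control. In ImCD8 the lowest was Fen1, the flap nuclease of Okazaki fragments, at 1.38 and 1.31 CPM per kb in dKO and control. Of the exonic bases of Fen1, 84.2% also lie in exons of other genes (Tmem258 and Gm10143), so reads may have been left out as ambiguous and its level is uncertain. The same holds for Gins2, with 67.3% shared with Gse1, and for Chaf1a, with 52.5% shared with Ubxn6. Pcna has 2 pseudogenes annotated under its own name and Tyms 1, which can take or give reads. Pseudogenes under other names were not counted.

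The comparison of populations asks how far the replication genes differ between immature CD8 and CD4 cells. The sorting gates also differ, with TCRb+ used for ImCD8 and H2-Kb- for ImCD4, so population and gate cannot be told apart. The gate markers Cd69, Cd44 and H2-K1 summed to 2832 to 3685 CPM in ImCD8 and 829 to 1034 CPM in ImCD4 libraries. Of these 3, 1 was called higher and 1 lower in ImCD8 in each genotype. Nearly all of the module was higher in ImCD8. Among dKO libraries 39 of 43 genes were called higher and none lower (edgeR's quasi-likelihood test, Benjamini-Hochberg adjusted p under 0.05), against 22.1% of all genes called higher and 43.7% called in either direction. Among control libraries 41 of 43 were called higher and none lower, against 23.1% of all genes called higher and 45.3% in either direction. The median log2 fold change of the module was 0.90 in dKO and 1.09 in control, while that of all genes tested was -0.00 and -0.01. All values for ImCD8 lay above all values for ImCD4 for 39 genes in dKO (25.6% of all genes) and for all 43 genes in control (28.8% of all genes). At an unadjusted p under 0.05 0 genes were lower in either genotype, against 25.3% of all genes in dKO and 25.9% in control. DESeq2 and limma-voom also called 0 lower, against 20.7% and 21.3% of all genes in dKO and 21.4% and 23.9% in control. Where libraries were scaled by size alone, 42 of 43 genes had positive values in dKO, with Rpa1 at -0.02, and all 43 in control, although the calls over all genes then leaned the other way (2548 higher and 3435 lower in dKO, 2675 and 3546 in control, in place of 2960 and 2893, and 3097 and 2961).

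All 10 origin licensing genes were higher in ImCD8 in both genotypes, with median log2 fold changes of 1.13 in dKO and 1.66 in control. Cdc6, the loader of the Mcm ring, was at 19.8, 17.7 and 18.5 CPM in the ImCD8 dKO libraries and at 4.996, 3.54 and 4.81 CPM in the ImCD4 dKO libraries. Among control libraries Cdc6 was at 19.7, 23.7 and 18.6 CPM in ImCD8 and at 1.65, 3.43 and 1.27 CPM in ImCD4. The populations do not overlap, and the log2 difference was 2.06 ± 0.22 (SE) in dKO and 3.28 ± 0.25 in control (edgeR adjusted p = 1.55e-06 and 3.13e-08). Mcm2, the gene of this role with the highest mean CPM over all 12 libraries, was at 259, 229 and 255 CPM in ImCD8 dKO and at 164, 168 and 187 CPM in ImCD4 dKO libraries. In control libraries Mcm2 was at 252, 279 and 265 CPM in ImCD8 and at 130.5, 132 and 134 CPM in ImCD4. Its difference was smaller than that of Cdc6, 0.52 ± 0.07 in dKO and 1.01 ± 0.07 in control (edgeR adjusted p = 3.01e-05 and 2.24e-08). Within the ring itself the control log2 fold changes ran from 1.01 for Mcm2 to 2.23 for Mcm6.

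Helicase activation genes were all higher in ImCD8 among controls, and 5 of 6 among dKO libraries. Mcm10 had the largest log2 fold change of the module in both genotypes. It was at 11.9, 10.7 and 10.2 CPM in ImCD8 dKO and at 1.16, 1.15 and 0.855 CPM in ImCD4 dKO libraries. Among control libraries Mcm10 was at 16.1, 16.2 and 9.78 CPM in ImCD8 and at 1.178, 1.55 and 1.06 CPM in ImCD4. The lowest ImCD8 library is far above the highest ImCD4 library, and the fold change was 10.2 in dKO and 11.0 in control (log2 3.35 ± 0.26 and 3.46 ± 0.26, edgeR adjusted p = 4.31e-08 and 2.31e-08). Cdc45, which joins the ring to make the active helicase, was at 18.04, 13.98 and 17.5 CPM in ImCD8 dKO and at 4.55, 4.59 and 4.598 CPM in ImCD4 dKO libraries. In control libraries Cdc45 was at 20.6, 23.7 and 21.8 CPM in ImCD8 and 4.47, 5.64 and 4.77 CPM in ImCD4. Its log2 difference was 1.84 ± 0.15 in dKO and 2.14 ± 0.15 in control, with no overlap in either. Among the subunits of GINS the differences were smaller: Gins4, the gene of this role with the highest mean CPM over all 12 libraries, was at 51.3, 44.4 and 43.1 CPM in ImCD8 dKO and at 35.7, 32.1 and 33.6 CPM in ImCD4 dKO libraries, a log2 difference of 0.45 ± 0.09 (edgeR adjusted p = 0.000796). In control libraries it was at 48.1, 55.2 and 53.2 CPM in ImCD8 and 36.0, 35.6 and 34.97 CPM in ImCD4, a log2 difference of 0.55 ± 0.09. Gins3 was not called in dKO, at 0.27 ± 0.17.

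The 9 polymerase and primase genes were all called higher in ImCD8 in both genotypes. Pole, the catalytic subunit of the leading-strand polymerase, was at 31.4, 26.4 and 27.5 CPM in ImCD8 dKO and at 7.40, 5.74 and 5.67 CPM in ImCD4 dKO libraries. Among control libraries Pole was at 36.4, 36.3 and 33.9 CPM in ImCD8 and at 4.36, 6.08 and 4.13 CPM in ImCD4. The populations lie well apart, by a log2 difference of 2.17 ± 0.15 in dKO and 2.87 ± 0.16 in control (edgeR adjusted p = 1.10e-08 and 7.16e-10). Pold1, the catalytic subunit of the lagging-strand polymerase, was at 99.1, 96.4 and 102 CPM in ImCD8 dKO and at 53.0, 58.2 and 48.4 CPM in ImCD4 dKO libraries. In control libraries Pold1 was at 114, 117 and 117 CPM in ImCD8 and at 44.5, 45.9 and 44.8 CPM in ImCD4. It differed by 0.90 ± 0.07 and 1.37 ± 0.07 on the log2 scale (edgeR adjusted p = 7.90e-08 and 7.19e-10). The other 7 genes of this role had log2 differences from 0.39 (Prim2) to 1.46 (Prim1) in dKO and from 0.60 (Pold2) to 1.61 (Prim1) in control.

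The clamp and its loader showed smaller differences, with medians of 0.60 in dKO and 0.85 in control. Pcna was at 205, 155 and 179.5 CPM in ImCD8 dKO and at 104, 96.9 and 106 CPM in ImCD4 dKO libraries. Among control libraries Pcna was at 169, 185 and 177 CPM in ImCD8 and at 83.7, 88.5 and 89.4 CPM in ImCD4. There was no overlap, and the log2 difference was 0.81 ± 0.09 and 1.02 ± 0.09 (edgeR adjusted p = 2.10e-06 and 1.59e-07). Rfc1, the large loader subunit, was not called in dKO (0.16 ± 0.08, edgeR adjusted p = 0.0913), nor was Rfc3 in control (0.20 ± 0.12, edgeR adjusted p = 0.185).

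Among single-strand binding genes Rpa1, the large subunit of replication protein A, was the only gene of the module called in neither genotype. It was at 189, 222 and 188 CPM in ImCD8 dKO and at 190.3, 241 and 152 CPM in ImCD4 dKO libraries. Among control libraries Rpa1 was at 203, 204 and 213 CPM in ImCD8 and at 189.8, 194 and 156 CPM in ImCD4. The dKO values overlap, and neither difference was called (log2 0.04 ± 0.14 and 0.20 ± 0.14, edgeR adjusted p = 0.855 and 0.259). Rpa2 and Rpa3, its smaller partners, were called higher in both genotypes, by 0.85 and 0.24 in dKO and by 1.09 and 0.35 in control. The remaining gene of this role, Tipin, a fork protection factor, was also called, at 0.79 and 0.93.

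Lig1, the ligase that seals Okazaki fragments, was at 38.5, 33.7 and 35.2 CPM in ImCD8 dKO and at 14.4, 16.1 and 12.2 CPM in ImCD4 dKO libraries. Among control libraries Lig1 was at 42.2, 49.6 and 41.1 CPM in ImCD8 and at 10.5, 12.3 and 11.4 CPM in ImCD4. Every ImCD8 value is above every ImCD4 value, with a log2 difference of 1.33 ± 0.12 in dKO and 1.95 ± 0.13 in control (edgeR adjusted p = 2.76e-07 and 4.53e-09). Fen1, the other gene of this role, was not called in dKO, where its log2 difference was 0.15 and the libraries overlap. In control its difference was 0.81 (edgeR adjusted p = 0.0244), a call kept in 8 of 14 other settings. Chaf1a, the large subunit of the assembly factor that lays histones on new DNA, was at 26.3, 22.1 and 20.2 CPM in ImCD8 dKO and at 6.96, 7.46 and 5.77 CPM in ImCD4 dKO libraries. In control libraries it was at 24.7, 33.0 and 26.3 CPM in ImCD8 and at 5.42, 7.40 and 4.13 CPM in ImCD4, and the log2 difference was 1.76 ± 0.19 in dKO and 2.30 ± 0.19 in control. Its partner Chaf1b differed less, by 0.79 ± 0.12 in dKO and 0.76 ± 0.12 in control. Chaf1b was at 52.8, 51.1 and 42.0 CPM in ImCD8 dKO and at 30.2, 27.6 and 26.4 CPM in ImCD4 dKO libraries, and at 41.2, 52.7 and 44.1 CPM in ImCD8 and 28.4, 29.6 and 23.1 CPM in ImCD4 control libraries.

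All 4 nucleotide synthesis genes were higher in ImCD8 in both genotypes. Rrm2, the small subunit of ribonucleotide reductase that cycling cells make, was at 65.9, 66.1 and 36.5 CPM in ImCD8 dKO and at 19.3, 13.8 and 6.63 CPM in ImCD4 dKO libraries. Among control libraries Rrm2 was at 85.6, 89.6 and 47.0 CPM in ImCD8 and at 8.24, 7.85 and 4.77 CPM in ImCD4. The populations do not overlap, although replicate 3 is lowest in each group, and the log2 difference was 2.07 ± 0.40 in dKO and 3.41 ± 0.44 in control (edgeR adjusted p = 0.00223 and 0.000165). Tk1, thymidine kinase, was at 12.1, 10.9 and 7.85 CPM in ImCD8 dKO and at 3.66, 2.39 and 1.176 CPM in ImCD4 dKO libraries. In control libraries it was at 14.1, 18.6 and 7.23 CPM in ImCD8 and at 1.88, 1.33 and 0.848 CPM in ImCD4, and its log2 difference was 2.06 ± 0.39 in dKO and 3.29 ± 0.44 in control. Replicate 3 is again the lowest of each group. Rrm1, the large reductase subunit, was at 106, 99.2 and 84.1 CPM in ImCD8 dKO and at 64.8, 68.8 and 65.3 CPM in ImCD4 dKO libraries, and at 121, 131 and 103 CPM in ImCD8 and 55.9, 65.6 and 57.9 CPM in ImCD4 control libraries. Its log2 difference was 0.54 ± 0.10 and 0.98 ± 0.10, well under that of its partner Rrm2.

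**Figure D2:**
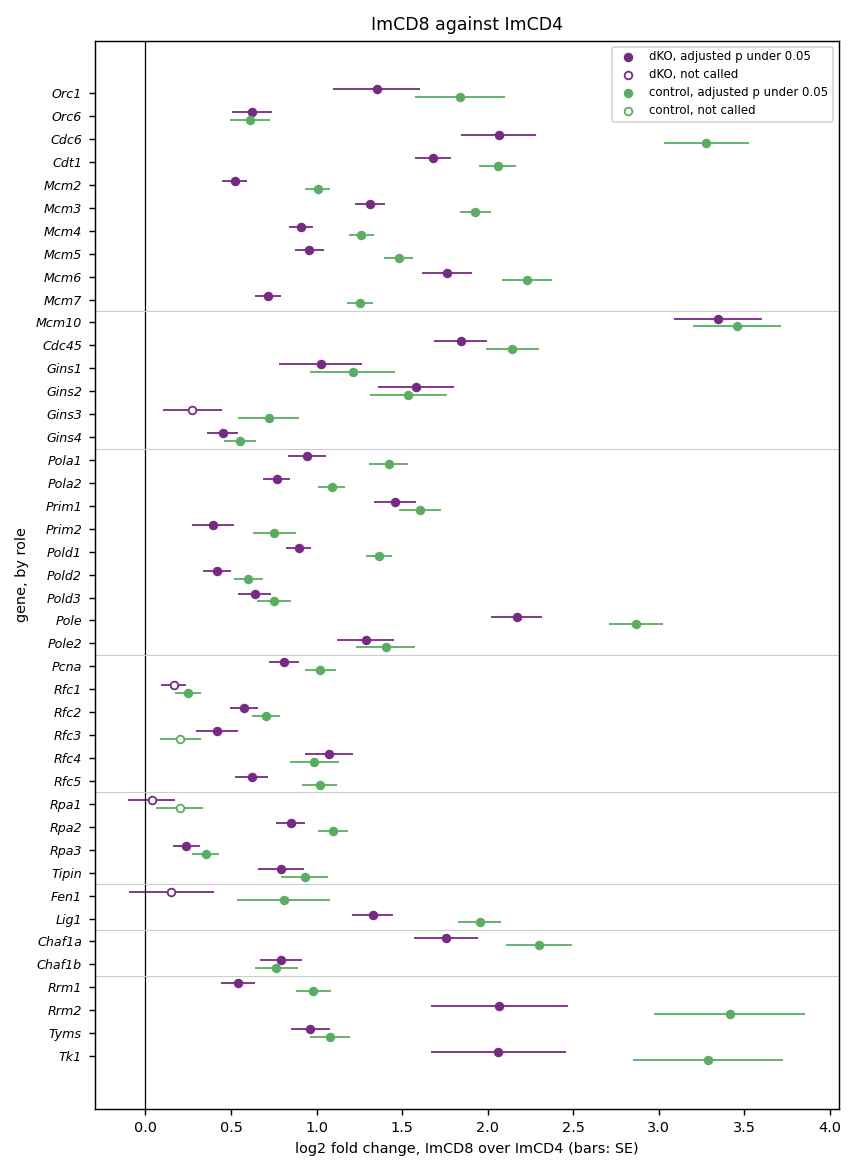
Log2 fold change of each gene in ImCD8 over ImCD4 (horizontal axis, bars SE) for dKO and control libraries, with filled points for an edgeR adjusted p under 0.05. All points lie right of 0, from 0.04 (Rpa1 in dKO, which is at -0.02 where libraries are scaled by size alone) to 3.46 (Mcm10 in control).

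Other lists of the same pathways also leaned higher in ImCD8, except that of E2F and pocket protein genes. That list was split, with median log2 fold changes of 0.03 in dKO and 0.06 in control. Over all genes 22.1% were called higher and 21.6% lower in dKO, and 23.1% and 22.1% in control. Of 37 other replication factors, 23 were called higher and 3 lower in ImCD8 among dKO libraries, and 25 higher and 3 lower among controls. Clspn, an adaptor of the replication checkpoint, had log2 fold changes of 2.51 in dKO and 3.504 in control. Of 30 other nucleotide metabolism genes tested, 20 were called higher and 1 lower in dKO, and 26 and 1 in control. Samhd1, which breaks down deoxynucleotides, was lower in ImCD8 and fell by 2.22 in dKO and 2.16 in control on the log2 scale. E2f1, an activator of S phase genes, was higher in ImCD8 by 1.76 in dKO and 2.06 in control, in a list of 18 E2F and pocket protein genes with 5 higher and 5 lower in dKO and 6 and 4 in control. Of 19 S phase checkpoint genes, 12 were higher and 1 lower in dKO, and 13 and 2 in control. Ccne1, the cyclin of S phase entry, had values of 2.97 and 3.18. The 28 mitosis genes had 25 higher and 1 lower in dKO and 27 and 1 in control, with medians of 2.14 and 3.002, above the module's own.

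Marker lists of other cells were measured beside these values. The 8 markers of double-positive and earlier thymocytes summed to 196 to 289 CPM in ImCD8 dKO and 170 to 217 CPM in ImCD8 control libraries, and to 183 to 228 CPM in ImCD4 dKO and 172 to 205 CPM in ImCD4 control libraries. These ranges overlap between the populations. Of the 7 markers tested, 1 was called higher and 2 lower in ImCD8 among dKO libraries, and 1 and 3 among controls. Over all genes 22.1% were called higher and 21.6% lower in dKO, and 23.1% and 22.1% in control. Rag2 and Ptcra averaged under 1 CPM in every group. Kit was the one marker of the 8 with all ImCD8 libraries above all ImCD4 libraries in both genotypes, at 34.5 to 92.7 CPM in dKO and 57.6 to 88.7 CPM in control libraries, against 4.06 to 8.39 CPM in ImCD4 dKO and 5.83 to 6.12 CPM in ImCD4 control libraries. Summed B cell markers were at 22.5 to 36.7 CPM in ImCD8 dKO and 11.2 to 14.03 CPM in ImCD8 control libraries, against 5.67 to 7.75 CPM in ImCD4 dKO and 3.07 to 5.19 CPM in ImCD4 control libraries. Cd79b made up most of this sum, and Ms4a1 was at 0 to 0.114 CPM in every library. Summed natural killer markers were at 17.3 to 46.3 and 13.4 to 41.5 CPM in ImCD8 dKO and control, and at 0.214 to 1.07 and 0.530 to 0.942 CPM in ImCD4 dKO and control libraries. Ncr1 was at 0 in all 12 libraries. Thymic epithelial markers, nearly all Epcam, were at 12.3 to 22.1 and 8.96 to 10.4 CPM in ImCD8 dKO and control, and at 5.55 to 6.96 and 4.34 to 5.42 CPM in ImCD4 dKO and control libraries, and the other 4 were under 1 CPM. Their part in the differences was not tested.

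The comparison of dKO with control in ImCD4 asks whether losing both zinc finger genes changes the replication genes there. Cdc6, Mcm2, Mcm3, Mcm5, Mcm7 and Pold1 rose in ImCD4 dKO libraries and Rfc3 fell. That is 6 genes called higher and 1 lower of 43, against 7.26% of all genes called higher, 6.16% called lower and 13.4% in either direction. With both directions pooled, the share called is thus near that of all genes tested. The share called higher is above that of all genes and the share called lower is below it, on 6 genes and 1 gene. Positive values were found for 33 genes and negative values for 10, with a median log2 fold change of 0.18, against 0.02 over all genes. The groups did not overlap for 14 genes that were higher (18.1% of all genes) and 2 that were lower (15.7% of all genes). The ImCD4 groups also differ in depth, at 9319732 to 10943143 gene counts in dKO and 8276742 to 9173424 in control, and in the share of reads outside any gene, at 10.49% to 12.9% and 13.6% to 16.4%, and their part was not tested.

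Origin licensing held 5 of the 6 genes that rose, and its median was 0.30. Mcm2 was at 164, 168 and 187 CPM in ImCD4 dKO libraries, against 130.5, 132 and 134 CPM in ImCD4 control libraries. Every dKO library is above every control library, a 1.305-fold rise (log2 0.38 ± 0.07, edgeR adjusted p = 0.00266). Mcm7, at chromosome 5, 138164583 to 138172422 on the minus strand (GRCm38), was at 112, 125 and 118 CPM in dKO and 90.3, 96.5 and 93.8 CPM in control libraries. It also shows no overlap (log2 0.34 ± 0.08, edgeR adjusted p = 0.00763), and 12.6% of its exonic bases are shared with other genes. Mcm3 was at 63.5, 70.1 and 78.8 CPM in dKO and 56.6, 60.4 and 55.3 CPM in control libraries, a log2 difference of 0.30 ± 0.09 (edgeR adjusted p = 0.0379). Mcm5 was at 92.1, 91.1 and 109 CPM in dKO and 76.2, 80.7 and 80.4 CPM in control libraries, a log2 difference of 0.30 ± 0.09 (edgeR adjusted p = 0.0290). For both genes the lowest dKO library lies above the highest control library. Cdc6 had the largest change, 2.10-fold (log2 1.07 ± 0.28, edgeR adjusted p = 0.0197), at a low level of 4.996, 3.54 and 4.81 CPM in dKO and 1.65, 3.43 and 1.27 CPM in control libraries. Replicate 2 of the controls nearly reaches the lowest dKO library. The other ring subunits, Mcm4 and Mcm6, were at 0.19 ± 0.07 and 0.01 ± 0.15 and were not called.

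Outside licensing, Pold1 rose and Rfc3 fell. Pold1 was at 53.0, 58.2 and 48.4 CPM in ImCD4 dKO and 44.5, 45.9 and 44.8 CPM in ImCD4 control libraries, a log2 difference of 0.24 ± 0.08 (edgeR adjusted p = 0.0462). Rfc3, a small subunit of the clamp loader, was at 14.8, 13.0 and 13.9 CPM in dKO and 16.5, 19.0 and 20.2 CPM in control libraries. Its highest dKO library is below its lowest control library, and it fell by 0.42 ± 0.12 on the log2 scale (edgeR adjusted p = 0.0353). None of the 6 helicase activation genes was called by edgeR, DESeq2 or limma-voom, 0 passed an unadjusted p under 0.05, and 4 of these 6 had negative values. Over all genes 14.8% were higher and 12.5% lower at that unadjusted p, while DESeq2 called 7.46% higher and 6.14% lower and limma-voom 9.75% and 8.49%. Rrm2 and Tk1, at 0.95 ± 0.48 and 0.87 ± 0.51, were not called (edgeR adjusted p = 0.242 and 0.302), and their groups overlap.

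Mcm2 and Mcm7 kept their calls in all 15 other settings, which include leaving out each ImCD4 library in turn. The other 5 did not. With 1 library left out, 7.71% to 10.8% of all genes were called, in place of 13.4%. Cdc6 lost its call without control replicate 1, control replicate 3 or dKO replicate 1, with edgeR adjusted p up to 0.0904. Mcm5 lost it without any of the 3 control libraries or dKO replicate 3 (edgeR adjusted p up to 0.122), and Mcm3 without any library but dKO replicate 1 (up to 0.150). Pold1 lost it without any library but dKO replicate 3 (edgeR adjusted p up to 0.211), and Rfc3 without any but control replicate 1 (up to 0.134). Without the replicate 3 libraries of the 4 groups, a setting added after the data were seen, 4 of 43 genes were called, against 12.3% of all genes. They were Mcm2, Mcm7 and Pold1, which are among the 7, and Rrm2. Rrm2 then rose by 1.04 ± 0.16 in ImCD4 dKO libraries (edgeR adjusted p = 0.000333). With all 12 libraries kept and a term for those 4 in the model, also added after the data were seen, all 7 genes were called, and Cdt1, Mcm4, Rfc5 and Rrm2 rose as well, 11 of 43 against 20% of all genes.

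**Figure D3:**
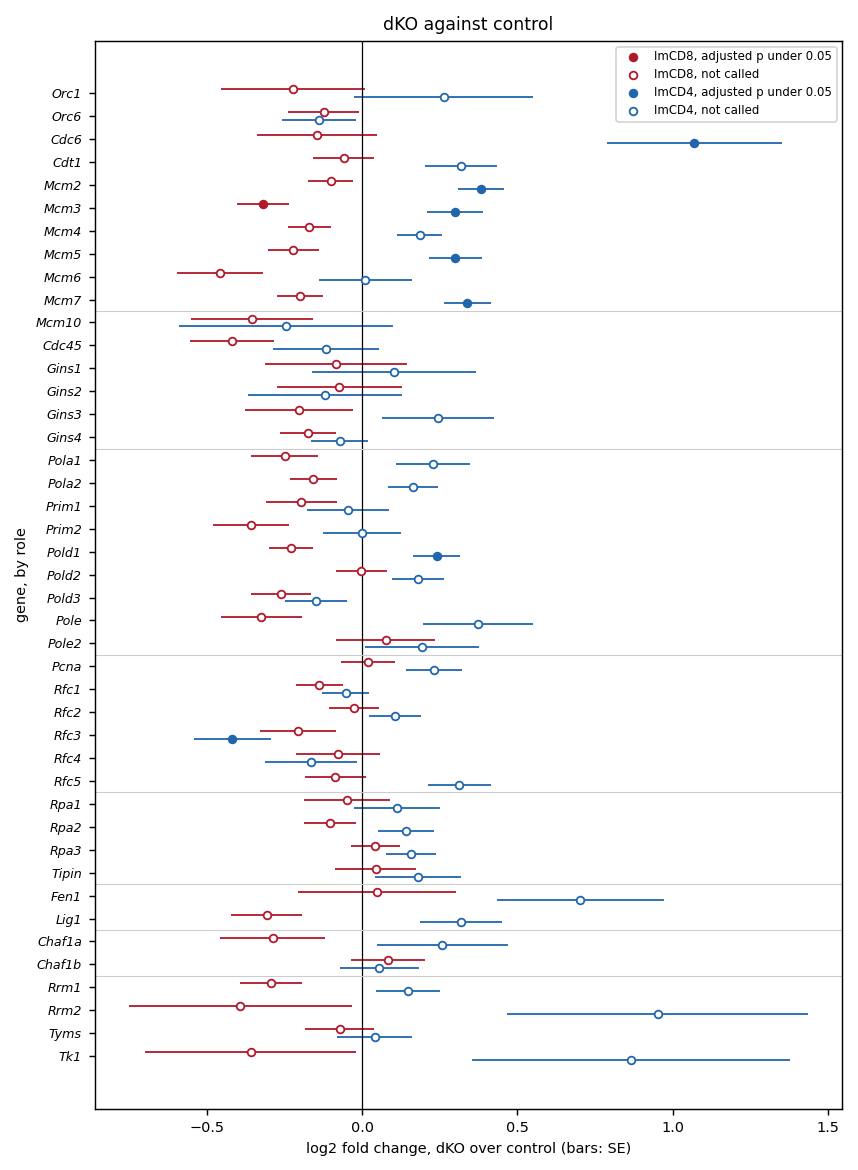
Log2 fold change of each gene in dKO over control (horizontal axis, bars SE) in ImCD8 and ImCD4, with filled points for an edgeR adjusted p under 0.05. Most ImCD8 points lie left of 0 and most ImCD4 points right of 0, with a median of -0.17 in ImCD8 and 0.18 in ImCD4.

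In ImCD8 the same comparison gave 1 call. Mcm3 fell in dKO libraries, and no gene of the 43 was called higher, against 3.53% of all genes called lower, 2.62% called higher and 6.14% in either direction. At an unadjusted p under 0.05, 13 genes were lower and 0 higher, against 9.44% and 9.39% of all genes. DESeq2 and limma-voom each called 2 lower and 0 higher, against 4.05% lower and 3.69% higher of all genes by DESeq2 and 3.38% and 2.44% by limma-voom. Mcm3 was at 179, 159.9 and 188 CPM in ImCD8 dKO libraries, against 207, 233 and 216 CPM in ImCD8 control libraries. The highest dKO library is below the lowest control library, and the log2 fold change was -0.32 ± 0.08 (edgeR adjusted p = 0.0338), a level 0.802 times that of control. Negative values were found for 37 genes and positive values for 6, with a median of -0.17, against 0.01 over all genes. For 16 genes the dKO libraries lay wholly below the controls (11.5% of all genes) and for 0 wholly above (10.3% of all genes). Of these 16, 6 are licensing genes and 7 are polymerase and primase genes.

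Several other genes had lower values in ImCD8 dKO libraries without a call. Mcm6 was at 272, 196 and 234 CPM in dKO and 296, 328 and 339 CPM in control libraries (log2 -0.46 ± 0.14, edgeR adjusted p = 0.0742). Pold1 was at 99.1, 96.4 and 102 CPM in dKO and 114, 117 and 117 CPM in control libraries (-0.23 ± 0.07, edgeR adjusted p = 0.0711). Cdc45 was at 18.04, 13.98 and 17.5 CPM in dKO and 20.6, 23.7 and 21.8 CPM in control libraries (-0.42 ± 0.14, edgeR adjusted p = 0.0840). In all 3 genes the groups do not overlap. Pcna, at 0.02 ± 0.09, and the single-strand binding genes, from -0.10 to 0.04, had values near 0.

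Mcm3 lost its ImCD8 call without control replicate 1 (edgeR adjusted p = 0.0568), control replicate 2 (0.138), control replicate 3 (0.0701), dKO replicate 1 (0.0705) or dKO replicate 2 (0.124). It kept it without dKO replicate 3 (edgeR adjusted p = 0.0274). In a fit of the 6 ImCD8 libraries alone Mcm3 was not called. There 1 other gene of the 43 was called lower, against 4.48% of all genes called in either direction. Without the replicate 3 libraries of the 4 groups Mcm3 was at -0.38 ± 0.09 (edgeR adjusted p = 0.0124), and Rrm2 was also called, at -0.41 ± 0.11 (edgeR adjusted p = 0.0351). These were 2 of 43 genes, against 6.47% of all genes called in either direction. In that setting Rrm2 thus fell in ImCD8 dKO and rose in ImCD4 dKO libraries. With the term for those 4 libraries, Mcm5, Cdc45, Pold1, Pold3, Rrm1 and Rrm2 fell along with Mcm3, 7 of 43 against 10.6% of all genes called in either direction.

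**Figure D4:**
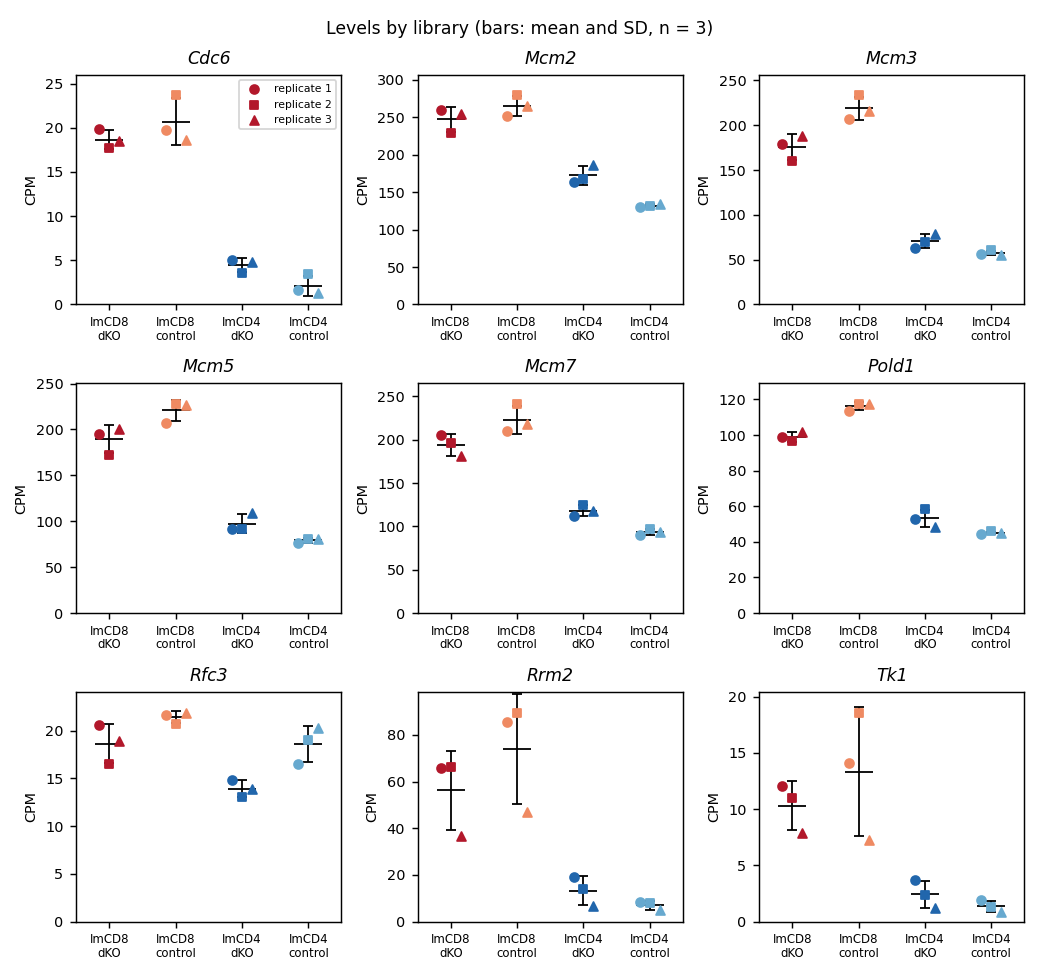
CPM of 9 genes in each library, by group, with replicates as symbols and bars for the mean and SD (n = 3). Mcm2, Mcm3, Mcm5 and Mcm7 are higher in dKO than in control in ImCD4, and Rrm2 and Tk1 have replicate 3 lowest in every group.

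Whether the dKO effect differed between the populations was tested directly. Mcm3 and Mcm7 had a lower dKO effect in ImCD8 than in ImCD4, 2 of 43 genes, against 0.254% of all genes called lower and 0.433% in either direction. For Mcm3 the effects were -0.32 ± 0.08 in ImCD8 and 0.30 ± 0.09 in ImCD4, a difference of -0.62 ± 0.12 (edgeR adjusted p = 0.0342). For Mcm7 they were -0.20 ± 0.07 and 0.34 ± 0.08, a difference of -0.54 ± 0.11 (edgeR adjusted p = 0.0327). The ImCD8 libraries behind Mcm7 were at 206, 196 and 181 CPM in dKO and 209.7, 241 and 219 CPM in control. Each gene thus has every dKO library below every control library in ImCD8 and above in ImCD4.

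The difference was negative for 38 genes and positive for 5, with a median of -0.32, against -0.01 over all genes. At an unadjusted p under 0.05 it was lower for 15 genes and higher for 0, against 5.75% and 4.24% of all genes. Mcm2 (-0.49 ± 0.10, edgeR adjusted p = 0.0545), Pold1 (-0.47 ± 0.10, edgeR adjusted p = 0.0702) and Mcm5 (-0.52 ± 0.12, edgeR adjusted p = 0.0788) came next and were not called. By role the medians ran from -0.83 for nucleotide synthesis to -0.11 for the clamp and its loader. Leaving out 1 library ended the Mcm3 call in 10 of 12 cases and the Mcm7 call in 9 of 12, with edgeR adjusted p up to 0.112 for each. The Mcm3 call held without dKO replicate 1 in ImCD4 or dKO replicate 3 in ImCD8, and the Mcm7 call without dKO replicate 1 in ImCD4, control replicate 1 in ImCD8 or dKO replicate 1 in ImCD8. Without the 4 replicate 3 libraries Mcm3 was at -0.57 (edgeR adjusted p = 0.0528) and Mcm7 at -0.51 (0.0863), and Pold1 (-0.54, 0.0478) and Rrm2 (-1.45, 0.00104) were called in their place. That is 2 of 43 genes, against 0.792% of all genes called in either direction. With the term for those 4 libraries, Mcm3 and Mcm7 were called together with Mcm2, Mcm5, Pold1 and Rrm2, 6 of 43 against 1.49% of all genes called in either direction.

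Calls of dKO against control in the related lists are set beside those over all genes. In dKO libraries edgeR called 7.26% of all genes higher and 6.16% lower in ImCD4, and 2.62% and 3.53% in ImCD8. In ImCD4, 4 of 37 other replication factors rose and 1 fell. Dna2, a nuclease and helicase of flap processing, rose by 1.11, Pole4 by 0.33, and Rnaseh2a, a subunit of the enzyme that removes ribonucleotides from DNA, fell by 0.56. Of 30 other nucleotide metabolism genes 8 rose and 1 fell, with Impdh2 and Impdh1, which make guanine nucleotides, at 0.39 and 0.44, and Cad, which starts pyrimidine synthesis, at 0.41. Of 28 mitosis genes, Kif23 (0.92) and Cenpa (0.43) rose, and the list's median was 0.40. In ImCD8, 0 of 37 other replication factors were called by edgeR, DESeq2 or limma-voom (3 lower and 0 higher at an unadjusted p under 0.05). Of all genes in ImCD8, 9.44% were lower and 9.39% higher at that unadjusted p. DESeq2 called 4.05% lower and 3.69% higher there, and limma-voom 3.38% and 2.44%. Ctps2 and Ppat fell by 0.35 each among nucleotide genes, and Kif23 rose by 0.72, with a median of -0.52 over the mitosis list. Of 18 E2F and pocket protein genes, 1 rose and 2 fell in ImCD4, and the only call in ImCD8 was a fall. Of 19 S phase checkpoint genes, 1 rose and 1 fell in ImCD4, with a median of 0.07, and again the only call in ImCD8 was a fall. Tfdp2, a partner of E2F proteins, fell by 0.74 in ImCD8 and 0.56 in ImCD4, and Cdk2, a kinase of S phase, by 0.70 and 0.59. Rb1, which restrains E2F, fell by 0.33 in ImCD4, and its relative Rbl2 rose by 0.51. None of these lists had a gene whose dKO effect was called different between the populations by edgeR or limma-voom, and DESeq2 called 1 nucleotide metabolism gene lower. Of all genes, limma-voom called 0.344% lower and 0.217% higher and DESeq2 0.742% and 0.525%. At an unadjusted p under 0.05, which 5.75% of all genes passed as lower and 4.24% as higher, the difference was lower for 8 other replication factors, 8 nucleotide metabolism genes, 6 S phase checkpoint genes, 3 mitosis genes and 1 E2F or pocket protein gene, and higher for 1 other replication factor and 1 E2F or pocket protein gene.

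The mitosis list summed to 414 to 602 CPM in ImCD8 dKO and 382 to 804 CPM in ImCD8 control libraries, which overlap, and to 268 to 327 CPM in ImCD4 dKO and 179 to 211 CPM in ImCD4 control libraries, which do not. Markers of double-positive and earlier thymocytes overlap between dKO and control in both populations as a sum (ranges above). Among them Dntt was higher in dKO without overlap, at 90.96 to 119.5 CPM in ImCD8 dKO and 34.02 to 50.76 CPM in ImCD8 control, and at 78.7 to 87.5 CPM in ImCD4 dKO and 42.3 to 58.6 CPM in ImCD4 control libraries. In each population 1 other of the 7 early markers tested was lower in dKO without overlap. Of all genes, 11.5% were lower without overlap in ImCD8 and 15.7% in ImCD4. The gamma-delta markers, which include Sox13, were at 192 to 302 CPM in ImCD4 dKO and 29.1 to 31.9 CPM in ImCD4 control libraries. B cell and thymic epithelial sums were higher in dKO without overlap in both populations (ranges above). In ImCD8 the gamma-delta sum was also higher without overlap, at 17.97 to 21.7 CPM in dKO and 14.9 to 16.3 CPM in control. So was the CD4-lineage sum in ImCD8, at 72.3 to 93.7 CPM in dKO and 50.9 to 65.2 CPM in control. Of 4 CD4-lineage markers 2 were called higher and 0 lower there, and of 4 CD8-lineage markers 0 and 1. In ImCD4 the CD4-lineage sums overlap. Of 3 gate markers 1 was called higher in dKO and 0 lower in each population. The part of these markers in the dKO values was not tested.

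Replicate 3 was the lowest library in all 4 groups for 5 of 43 genes (11.6%, against 8.12% of all genes tested): Mcm10, Gins2, Tipin, Rrm2 and Tk1. It was the highest in all 4 for Cdt1 alone (2.33%, against 7.17%). For Rrm2 replicate 3 lay below the mean of the other replicates by -0.85 in ImCD8 dKO, -0.90 in ImCD8 control, -1.27 in ImCD4 dKO and -0.73 in ImCD4 control on the log2 scale. For Tk1 the values were -0.54, -1.14, -1.19 and -0.76. Of the 28 mitosis genes 17 were lowest in replicate 3 in all 4 groups, and of the 8 early thymocyte markers 4 of the 7 tested were. In ImCD4 the CD8-lineage sum was at 294, 286 and 141 CPM in dKO and 239, 242 and 121 CPM in control libraries. In ImCD8 that sum in replicate 3 lay within the range of the others. Natural killer markers in ImCD8 summed to 22.6, 17.3 and 46.3 CPM in dKO and 18.7, 13.4 and 41.5 CPM in control libraries. Their part in the replicate 3 values was not tested.

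**Figure D5:**
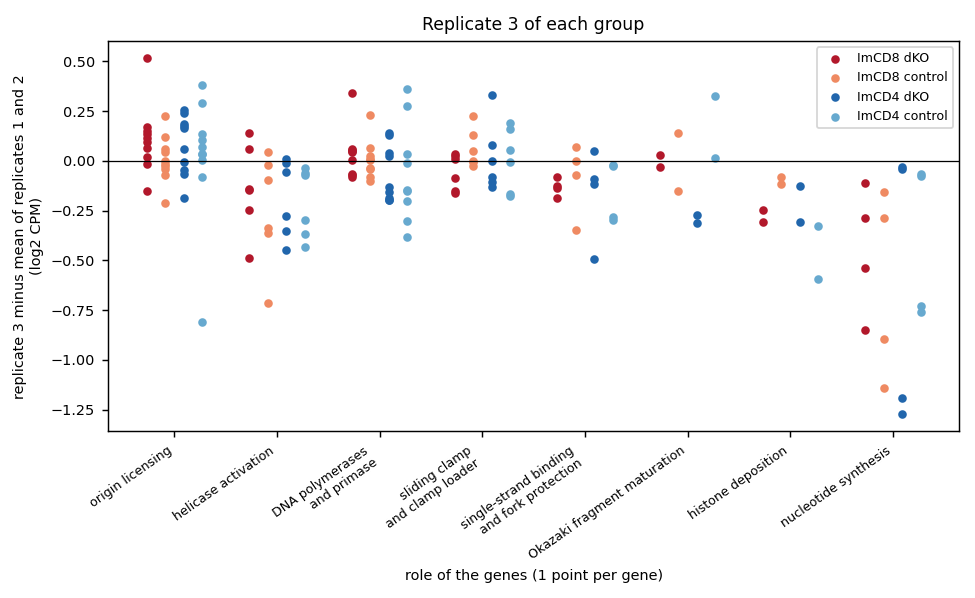
Replicate 3 minus the mean of replicates 1 and 2 (log2 CPM, vertical axis) for each gene, by role and group. Origin licensing genes lie between -0.81 and 0.51, and Rrm2 and Tk1 in nucleotide synthesis lie between -1.27 and -0.54 in all 4 groups.

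Within groups the module had a median pooled SD of 0.126 in log2 CPM against 0.173 over all genes tested. The largest spreads were those of Tk1 (0.585), Rrm2 (0.566), Cdc6 (0.373) and Orc1 (0.337). Tk1, Cdc6 and Orc1 are also genes of low level in ImCD4, where Cdc6 had 138 counts over the dKO libraries and 57 over the control libraries. Rrm2 spread in ImCD8 as well, with an SD of 0.492 in dKO at a mean of 56.2 CPM. In ImCD8 control libraries its SD was 0.518 at a mean of 74.1 CPM.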

How the data were processed

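RNA-seq libraries of sorted mouse thymocytes (12 libraries, 4 groups of 3) were made with a SMARTer low-input kit after RNeasy Plus Micro extraction, per the labels' protocols. Reads were processed by the authors with cutadapt 1.18, STAR 2.6.1 and HTSeq against mm10, per the submitters' processing notes. Neither annotation nor strand setting is given in the sources used here, and so overlapping and antisense genes may share reads that cannot be told apart. The authors deposited unnormalized counts for 53656 gene symbols and 5 summary rows; the summary rows were kept out of library sizes and tests.

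Tests used edgeR 4.0.16 in R 4.3.3: filterByExpr (minimum count 10, minimum total 15) kept 13383 genes, libraries were scaled by TMM (0.946 to 1.036), and all 12 libraries entered 1 robust quasi-likelihood model of 4 group means with 8 residual degrees of freedom. Tests were two-sided with Benjamini-Hochberg adjustment over all genes and a threshold of 0.05. An exact permutation test of 3 against 3 cannot go below p = 0.1. P-values cover only the spread among these libraries, part of which may be technical. Replicate numbers are the order of the records. Alternatives used RLE factors, library size alone, other filters, DESeq2 1.42.0, limma-voom (limma 3.58.1), the 6 libraries compared, leaving out libraries and a term for the 4 replicate 3 libraries. The code was tested on simulated counts.

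The genes and lists were chosen with earlier results of these data known. Values by library are given for genes called in a dKO comparison, the 6 largest per population comparison and the highest mean CPM of each role. Mcm6 and the genes next after the called ones were added after their values were seen. Of other lists up to 3 genes with the smallest p are named. Gene positions and shared exons come from GENCODE M21 (GRCm38).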

Additional observations from a re-analysis of the deposited data

Results flagged for a closer look

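The effect of dKO on Mcm3 differed between the populations by -0.62 on the log2 scale (ImCD8 minus ImCD4, edgeR adjusted p = 0.0342), with every dKO library below the controls in ImCD8 and above them in ImCD4. The effect on Mcm7 differed by -0.54 (edgeR adjusted p = 0.0327), with the same order of libraries. Both are singled out because the difference of the effects itself passed the test. Both directions in ImCD8 rest on the titles of the libraries.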

How the results depend on the processing

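Over all alternatives 0 values of single genes changed sign among those called in any setting, and the counts of genes higher in ImCD8 stayed at 37 to 39 in dKO and 39 to 41 in control, of 39 and 41 reported. The share of all genes called in either direction was then 21.2% to 49.9% in dKO and 22.5% to 52.2% in control. The ImCD4 dKO count of 7, beside 13.4% of all genes called, became 2 to 4 with each library left out (7.71% to 10.8%). It became 4 without the 4 replicate 3 libraries (12.3%) and 11 with a term for those 4 libraries (20%). The ImCD8 dKO count of 1, beside 6.14% of all genes called, became 2 with library size only (5.84%) and 3 with no filter on low counts (4.57%). It became 2 with DESeq2 (7.74%) and 2 with limma-voom (5.82%). Without the 4 replicate 3 libraries it was 2 (6.47%), with the term for them 7 (10.6%), and with each library left out 0 to 1 (3.46% to 6.14%). With only the 6 libraries compared it stayed at 1 (4.48%), but the gene called was not Mcm3. The count of 2 for the difference, beside 0.433% of all genes called, became 6 with no filter (0.833%) and 6 with DESeq2 (1.27%). It became 4 with limma-voom (0.56%), 6 with the term (1.49%) and 0 to 2 with each library left out (0.285% to 0.476%). The summed CPM of the module in ImCD4 control libraries was 1574 with library size only, against 1525. With library size only, 757 genes were higher and 853 lower in ImCD4 dKO, in place of 972 and 825. The causes were not tested. No paired analysis was possible because the labels give no replicate numbers that tie a library to one of another group. The term rests on a split seen in these data. Calls in dKO comparisons other than those of Mcm2 and Mcm7 in ImCD4 were lost in some fits with 1 library left out. Most such fits also called a smaller share of all genes. Whether a lost call stems from the library or from the smaller fit was not tested. The values of Cdc6, Mcm10 and Tk1 in ImCD4 rest on low counts.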
